A study of Mus musculus with 9 samples.

Results

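Proteasome subunit genes were followed in ribosome-associated RNA of parvalbumin inhibitory neurons (PV INs) of hippocampal CA3/CA2. They were taken by name, as protein-coding mouse genes whose symbol starts with Psma, Psmb, Psmc, Psmd, Psme, Psmf or Psmg followed by a number. Of the 37620 identifiers counted, 52 matched, and 48 of these reached 1 CPM (counts scaled to library size) in at least 1 sample, as did 15069 genes in all. The mice carried PV-Cre and Rpl22HA/HA, so that Cre from the parvalbumin locus adds a hemagglutinin (HA) tag to the ribosomal protein Rpl22 in cells that express parvalbumin, and this was shared by both groups. Control mice received lentivirus with a non-target shRNA (shNT, 5 samples) in the dentate gyrus (DG), and the others received virus with an shRNA against Ablim3 (shRNA, 4 samples), so that the virus was placed in DG and the RNA came from another cell type in CA3/CA2. Mice were 2 months old, tissue was taken 2 weeks after injection, and each sample pooled 6 mice, male and female. The samples carry names of 2 kinds, YTa31 (replicates 1 to 3 of both groups) and YTa32 (shNT replicates 4 and 5 and shRNA replicate 4), and whether these are batches is not stated.

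The proteasome degrades proteins that carry ubiquitin chains. Its barrel-shaped core has outer rings of alpha subunits (Psma genes), which form the gate, and inner rings of beta subunits (Psmb genes), of which Psmb5, Psmb6 and Psmb7 carry the proteolytic sites. The regulatory particle that caps the core has a base, with the ATPases encoded by the Psmc genes that unfold and thread substrates, and a lid, which includes the deubiquitinase Psmd14. Dedicated chaperones assemble both, other activators can take the place of the regulatory particle, and in neurons the complex takes part in turnover of synaptic proteins.

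Between 18281719 and 34578837 reads fell on genes per sample, and uniquely aligned reads outside exons made up 9.76 to 18.6% in the shNT samples and 12.4 to 27.2% in the shRNA samples, with shRNA replicate 4 the highest. Levels are CPM after TMM normalization, and differences were tested with edgeR's quasi-likelihood test over all 15069 genes with Benjamini-Hochberg adjustment (FDR), where SE is the standard error of the log2 fold change. Ablim3 itself, the shRNA target in DG, had a log2 fold change of 0.13 (FDR = 0.701, edgeR) in this PV IN RNA, which does not check the knockdown in DG. All 10 PV IN markers were detected in every sample, and their summed level was 4892 to 8056 CPM in the shNT samples and 2906 to 7059 CPM in the shRNA samples. Summed astrocyte markers (8 genes) were 1036 to 1457 CPM in the shNT samples, 1351 to 1588 CPM in shRNA replicates 1 to 3 and 5199 CPM in shRNA replicate 4. Endothelial markers (7 genes) were 85.6 to 247 CPM in the shNT samples, 53.9 to 113 CPM in shRNA replicates 1 to 3 and 740 CPM in shRNA replicate 4. Markers of CA3 and CA2 pyramidal neurons (7 genes), DG granule cells (5) and oligodendrocytes (6) had median log2 fold changes of 0.75, 0.96 and 0.79, and those of microglia (8) of 0.09. No marker of these lists was at 0 in any sample. Because shRNA replicate 4 stood apart, counts of all proteasome genes lower at an unadjusted p or without overlap are also given without it. Counts from the fit for single parts and for the other lists are given only with it. In pooled tissue, fewer cells of a type and less RNA per cell cannot be told apart.

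Proteasome genes had a lower summed level in the shRNA samples, and no single one passed the threshold. Their sum was 7100 ± 930 CPM (SD, n = 5) under shNT and 5494 ± 867 CPM (SD, n = 4) under shRNA, or 0.698 ± 0.0726% and 0.553 ± 0.0306% of gene reads. The log2 fold change (shRNA over shNT) was below 0 for 46 of the 48, against 42.1% of all genes tested, and its median was -0.41 against 0.11 over all genes. With edgeR's quasi-likelihood test at an FDR under 0.05 and 1.5-fold or more, 0 of the 48 were called lower, against 0.0133% of all genes, and 0 were called higher, against 1.74%. The lowest FDR of any of them was 0.0660, for Psmb10. At an unadjusted p under 0.05, 27 were lower and 1 was higher, against 13.4% and 20.7% of all genes. In 11 of the 48 all shRNA samples lay below all shNT samples, against 6.68% of all genes, and in 0 did all of them lie above, against 8.97%. Other tools called between 0 and 7 of the 48 lower and 0 higher: edgeR's likelihood ratio test called 4, DESeq2 called 7 and limma voom with sample quality weights called 3. Of all genes, the same tests called 542, 833 and 618 lower, against 2 with the quasi-likelihood test. They called 1688, 1532 and 2301 higher, against 262.

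**Figure D1:**
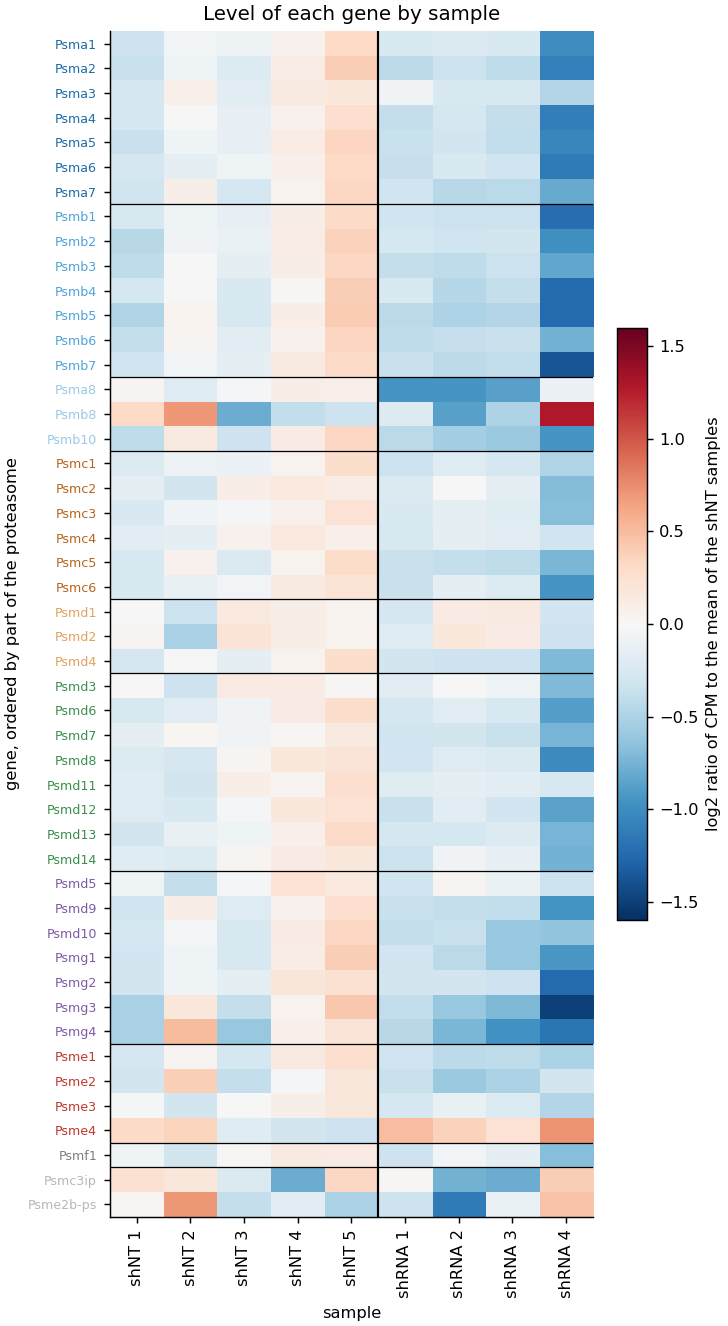
Level of each of the 48 genes (rows, ordered by part of the proteasome, with lines between parts) in each of the 9 samples (columns), as the log2 ratio of its CPM to the mean of the 5 shNT samples. Blue is below that mean and red above it. The shRNA replicate 4 column was the lowest of all samples in 38 genes, and shNT replicate 5 was the highest in 34.

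The difference was carried unevenly by the samples. The 31 genes of the core, base and lid together had a mean log2 level, relative to each gene's shNT mean, of -0.24, -0.09, -0.05, 0.11 and 0.27 in shNT replicates 1 to 5 and of -0.29, -0.22, -0.25 and -0.80 in shRNA replicates 1 to 4. shNT replicate 1 thus lay at the level of shRNA replicates 1 to 3, while shRNA replicate 4 lay far below and the YTa32 controls (shNT replicates 4 and 5) lay above all others. Within the YTa31 names the median log2 difference of the 48 genes was -0.17, with 44 of them below 0, and within the YTa32 names, where a single shRNA sample was compared with 2 shNT samples, it was -0.93, also with 44 below 0. Without shRNA replicate 4 the number lower at an unadjusted p under 0.05 went from 27 to 20, against 11.3% of all genes in that fit, and the median to -0.34. Leaving out shNT replicate 2, which had the lowest summed PV IN markers of the controls (4892 CPM), together with shRNA replicate 4 left 6, against 9.05% of all genes in that fit, with a median of -0.31. The number of genes whose groups did not overlap was 12 without shRNA replicate 4 (against 7.43% of all genes), 14 without both (10.6%) and 27 without shNT replicate 1 (11.4%). With the outside-exon share of reads as a term in the fit 14 were lower at an unadjusted p under 0.05 (median -0.32, against 10.6% of all genes), and with the kind of sample name as a term 23 (median -0.41, against 11.5%). The part of the cell type markers in these differences was not tested.

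**Figure D2:**
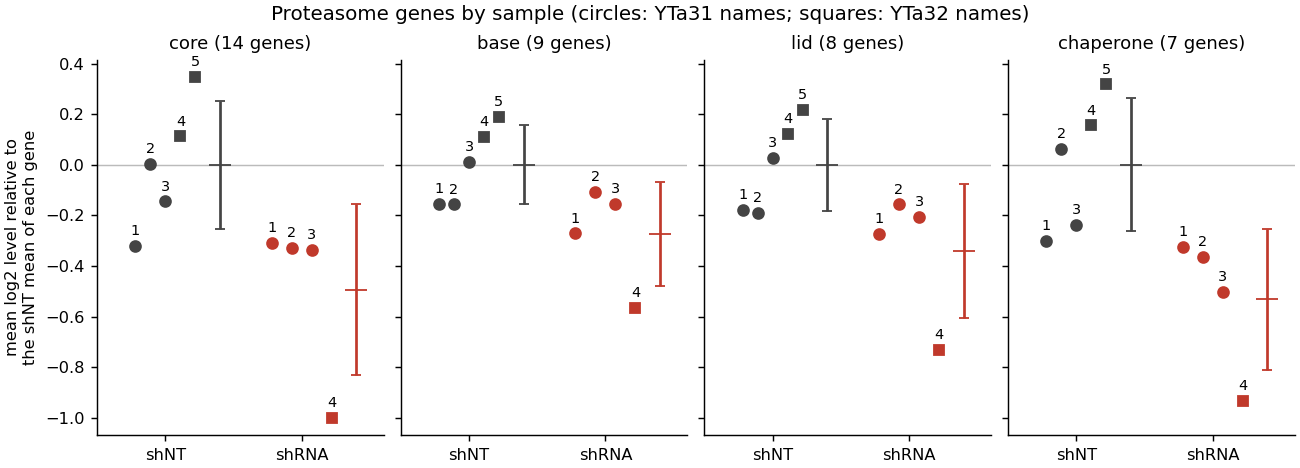
Mean log2 level of the core, base, lid and chaperone genes in each sample, relative to each gene's shNT mean (y axis), with replicate numbers beside the points, circles for YTa31 and squares for YTa32 names, and mean ± SD at the right of each group. In the core, shNT replicate 1 (-0.32) lay among shRNA replicates 1 to 3 (-0.34 to -0.31) and shRNA replicate 4 was at -1.0.

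The core had the lowest median of the 3 divisions. With the trend of log2 fold change with exon length over all genes taken off, the lid was lowest (-0.40, against -0.34 for the core). All 14 genes of the core's alpha and beta rings had a log2 fold change below 0, against 42.1% of all genes, with a median of -0.49. Of them, 11 were lower at an unadjusted p under 0.05, against 13.4% of all genes, though none at an FDR under 0.05. The alpha ring had a median of -0.49 (range -0.54 to -0.25) and the beta ring of -0.51 (range -0.62 to -0.44). The core summed to 2678 ± 476 CPM (SD, n = 5) under shNT and 1916 ± 388 CPM (SD, n = 4) under shRNA, and within names the median log2 difference was -0.18 for YTa31 and -1.28 for YTa32. Psma3 (ENSMUSG00000060073, chromosome 12 from 72075608 to 72097334), an alpha subunit, had the smallest difference of the ring, with 154 ± 20.7 CPM (SD, n = 5) against 129.6 ± 15.3 CPM (SD, n = 4) and a log2 fold change of -0.25 (FDR = 0.246, edgeR). Psma7 (ENSMUSG00000027566, chromosome 2 from 179771078 to 179777138), the alpha subunit with the highest level per kb, had a log2 fold change of -0.49 (FDR = 0.0904, edgeR).

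Psmb5 (ENSMUSG00000022193, chromosome 14 from 55232644 to 55236851) carries the chymotrypsin-like site. Its level was 129.7, 189, 152, 195 and 241 CPM across shNT replicates 1 to 5 and 135, 129, 131 and 76.4 CPM across shRNA replicates 1 to 4. The lowest shNT sample was inside the range of the shRNA samples, shRNA replicate 4 was far below the others, and the log2 fold change was -0.62 (SE 0.22, FDR = 0.0876, edgeR), with -0.24 within the YTa31 and -1.50 within the YTa32 names. Psmb6 (ENSMUSG00000018286, chromosome 11 from 70338869 to 70341360), which carries the caspase-like site, was at 203, 274, 233, 277 and 337 CPM across shNT replicates 1 to 5 and 199.7, 205, 206 and 157 CPM across shRNA replicates 1 to 4. Its groups overlapped at shNT replicate 1, and the log2 fold change was -0.46 (SE 0.17, FDR = 0.0970, edgeR). Psmb7 (ENSMUSG00000026750, chromosome 2 from 38443556 to 38499607), which carries the trypsin-like site, was at 157, 189.7, 176, 216 and 241 CPM across shNT replicates 1 to 5 and 153, 147, 149.5 and 76.0 CPM across shRNA replicates 1 to 4. Here every shRNA sample was below every shNT sample, with a log2 fold change of -0.58 (SE 0.22, FDR = 0.100, edgeR). Psmb4, a beta subunit without a proteolytic site and the one with the lowest level per kb of the ring, had a log2 fold change of -0.53 (FDR = 0.112, edgeR).

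The inducible and tissue-restricted core subunits gave unlike values. Psmb10 (ENSMUSG00000031897, chromosome 8 from 108459628 to 108462292) replaces Psmb7 in immunoproteasomes, the form that interferon induces. Its level was 63.6, 92.7, 66.7, 91.8 and 105 CPM across shNT replicates 1 to 5 and 62.4, 57.7, 55.6 and 43.7 CPM across shRNA replicates 1 to 4. All shRNA samples were below all shNT samples, although shNT replicate 1 and shRNA replicate 1 differed little, and the log2 fold change was -0.62 (SE 0.18, FDR = 0.0660, edgeR). A two-sided exact permutation test on this gene alone gave p = 0.0159, which is the smallest value that it can give here and which it gives for every gene whose groups do not overlap. Per kb, Psmb10 stood at 34.7 to 44.6% of Psmb7 in the shNT samples, at 34.0 to 37.2% in shRNA replicates 1 to 3 and at 52.5% in shRNA replicate 4. Psmb8 (ENSMUSG00000024338, chromosome 17 from 34334666 to 34338399), the inducible partner of Psmb5, was at 4.55, 5.88, 2.09, 2.77 and 2.89 CPM across shNT replicates 1 to 5 and 3.12, 1.99, 2.58 and 8.84 CPM across shRNA replicates 1 to 4. It was highest in shRNA replicate 4, and in shRNA replicates 1 to 3 it stayed within the shNT range except for shRNA replicate 2 just under it, with a log2 fold change of 0.18 (SE 0.46, FDR = 0.791, edgeR) that changed to -0.53 without shRNA replicate 4. Per kb it amounted to 0.64 to 1.88% of Psmb5 in every sample but shRNA replicate 4, where it was 6.19%. The 15 genes of interferon response and class I antigen presentation included 0 called either way with edgeR, against 0.0133% of all genes called lower and 1.74% higher. They included 0 at an unadjusted p under 0.05, against 13.4% of all genes lower and 20.7% higher. Their median log2 fold change was 0.28. Their mean relative log2 level was 1.28 in shRNA replicate 4 against -0.45 to -0.02 in shRNA replicates 1 to 3. In the shNT samples it was -0.49 to 0.42.

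Psmb9, the inducible partner of Psmb6, was listed at 0 in all samples under both of its identifiers, whose exons overlap each other almost wholly, so that its reads would be left out as ambiguous and its level cannot be read. Psma8 (ENSMUSG00000036743, chromosome 18 from 14864660 to 14920808), an alpha subunit known from testis, was at 2.17, 1.84, 2.06, 2.27 and 2.23 CPM across shNT replicates 1 to 5 and 1.10, 1.10, 1.16 and 1.98 CPM across shRNA replicates 1 to 4. It was thus near the CPM minimum, lower in shRNA replicates 1 to 3 than in all shNT samples and inside the shNT range in shRNA replicate 4, with a log2 fold change of -0.66 (FDR = 0.123, edgeR). Psmb11, the thymus subunit, reached 0.203 CPM at most and was not tested (Psme2b-ps, just inside the minimum, reached 1.12 CPM, both before TMM normalization), like a second identifier of Psmd14 that lies wholly inside the first and had no reads.

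**Figure D3:**
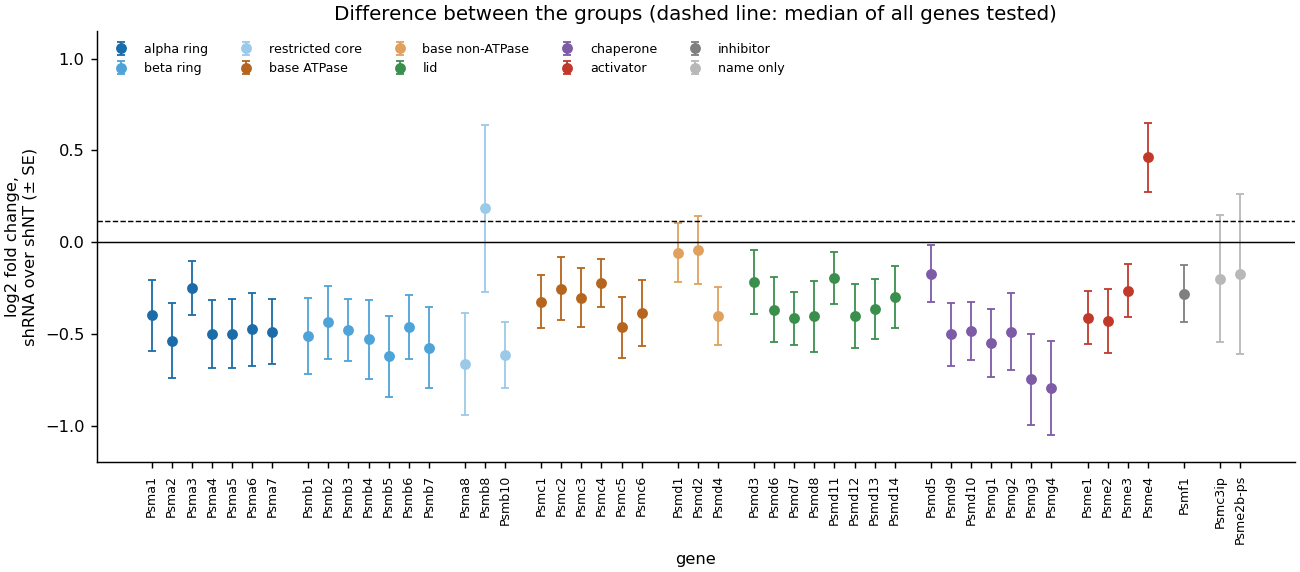
Log2 fold change, shRNA over shNT, of each of the 48 genes with its standard error (y axis), grouped and coloured by part. Of these, 46 lie below 0, and Psme4 (0.46) and Psmb8 (0.18) lie above it. The dashed line marks the median of all genes tested (0.11).

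All 9 base genes had a log2 fold change below 0 (median -0.30), against 42.1% of all genes. At an unadjusted p under 0.05, 3 base genes were lower, against 13.4% of all genes. The base genes summed to 2146 ± 226 CPM (SD, n = 5) under shNT and 1788 ± 231 CPM (SD, n = 4) under shRNA, and their median log2 difference was -0.10 within the YTa31 and -0.82 within the YTa32 names. Psmc5 (ENSMUSG00000020708, chromosome 11 from 106117468 to 106124434), an ATPase and the most abundant base gene per kb, was at 289, 364, 295, 362 and 425 CPM across shNT replicates 1 to 5 and 270.0, 266, 262 and 208 CPM across shRNA replicates 1 to 4. The groups did not overlap, shRNA replicates 1 to 3 lay close to shNT replicates 1 and 3, and the log2 fold change was -0.46 (SE 0.17, FDR = 0.0884, edgeR). The other ATPases were between -0.39 (Psmc6, FDR = 0.152) and -0.22 (Psmc4, FDR = 0.247, edgeR).

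The non-ATPase base subunits had unlike values. Psmd4 (ENSMUSG00000005625, chromosome 3 from 94836616 to 94846536), a receptor for ubiquitin chains, had a log2 fold change of -0.40 (FDR = 0.105, edgeR), with every shRNA sample below every shNT sample. Psmd1 (ENSMUSG00000026229, chromosome 1 from 87960962 to 88059363), a large scaffold subunit, was at 192, 151, 213, 205 and 199 CPM across shNT replicates 1 to 5 and 159, 211, 212 and 156 CPM across shRNA replicates 1 to 4. Its lowest values were shNT replicate 2, shRNA replicate 4 and shRNA replicate 1, and its log2 fold change was -0.06 (FDR = 0.819, edgeR). Psmd2, the other scaffold, was at 337 ± 59.9 CPM (SD, n = 5) against 327 ± 55.4 CPM (SD, n = 4), and its difference was -0.04 on the log2 scale (FDR = 0.889, edgeR). Within the YTa31 names both scaffolds were on the other side of 0, at 0.07 for Psmd1 and 0.12 for Psmd2.

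The 8 lid genes all had a log2 fold change below 0 (median -0.37), against 42.1% of all genes. Of them, 3 were lower at an unadjusted p under 0.05, against 13.4% of all genes. Summed, the lid genes were at 1485 ± 178 CPM (SD, n = 5) under shNT and 1173 ± 203 CPM (SD, n = 4) under shRNA, and their median log2 difference was -0.08 within the YTa31 and -0.93 within the YTa32 names. Psmd7 (ENSMUSG00000039067, chromosome 8 from 110104281 to 110112382), the partner of the deubiquitinase subunit, was at 212, 240.2, 226, 238 and 259 CPM across shNT replicates 1 to 5 and 188, 192, 184 and 141 CPM across shRNA replicates 1 to 4. It was the lid gene without overlap between the groups, and its log2 fold change was -0.41 (SE 0.14, FDR = 0.0823, edgeR). Psmd14, the deubiquitinase itself, was at 148 ± 18.9 CPM (SD, n = 5) against 120.4 ± 24.3 CPM (SD, n = 4), with a log2 fold change of -0.30 (FDR = 0.224, edgeR). Psmd11, which braces the lid against the core and had the lowest level per kb of the lid, had the smallest difference, -0.20 (FDR = 0.331, edgeR). The spread of its shRNA samples was 2.91 CPM (SD, n = 4) around 97.5 CPM.

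Assembly chaperones included the lowest values of the 48. The 7 genes had a median log2 fold change of -0.50, all below 0, against 42.1% of all genes. Of them, 6 were lower at an unadjusted p under 0.05, against 13.4% of all genes, with none at an FDR under 0.05. Their median log2 difference was -0.24 within the YTa31 and -1.18 within the YTa32 names, where a single shRNA sample was compared. With the trend of log2 fold change with exon length over all genes taken off, the chaperone median was -0.31, against -0.33 for all 48. Psmg4 (ENSMUSG00000071451, chromosome 13 from 34254833 to 34270041), which with Psmg3 forms a chaperone of alpha ring assembly, was at 10.3, 21.1, 9.74, 15.7 and 17.2 CPM across shNT replicates 1 to 5 and 10.9, 8.95, 7.54 and 6.58 CPM across shRNA replicates 1 to 4. The samples overlapped, since shNT replicates 1 and 3 were below shRNA replicate 1, and its log2 fold change of -0.80 (SE 0.26, FDR = 0.0734, edgeR) was the lowest of the 48 genes. Psmg3 (ENSMUSG00000029551, chromosome 5 from 140299548 to 140302797) followed at -0.75 (SE 0.25, FDR = 0.0773, edgeR), with 43.9 ± 11.8 CPM (SD, n = 5) against 26.1 ± 7.58 CPM (SD, n = 4). Psmg1 (ENSMUSG00000022913, chromosome 16 from 96201540 to 96212567), of the other pair of core chaperones, was at 23.5, 27.6, 24.4, 31.6 and 38.1 CPM across shNT replicates 1 to 5 and 23.4, 21.5, 19.1 and 15.3 CPM across shRNA replicates 1 to 4, with no overlap and a log2 fold change of -0.55 (FDR = 0.0779, edgeR). Of the base chaperones, Psmd10 (-0.48, FDR = 0.0734) and Psmd9 (-0.50, FDR = 0.0806, edgeR) had groups without overlap, while Psmd5 was at -0.17 (FDR = 0.439, edgeR).

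Activators and the inhibitor of the core gave a mixed picture. Psme1 and Psme2 encode the interferon-inducible cap, which opens the gate without ATP. Psme1 (ENSMUSG00000022216, chromosome 14 from 56196960 to 56200366) was at 38.3, 47.6, 38.0, 50.6 and 55.4 CPM across shNT replicates 1 to 5 and 36.8, 34.5, 34.7 and 32.2 CPM across shRNA replicates 1 to 4, with the groups apart and a log2 fold change of -0.41 (FDR = 0.0858, edgeR), and Psme2 was at -0.43 (FDR = 0.112, edgeR) with groups that overlapped. Psme3, the nuclear activator, had a log2 fold change of -0.26 (FDR = 0.210, edgeR), and Psmf1, an inhibitor of the core, of -0.28 (FDR = 0.218, edgeR).

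Psme4 (ENSMUSG00000040850, chromosome 11 from 30671726 to 30780361), a large single-chain activator known from DNA repair and sperm development, had the highest value of the 48. Its level was 21.4, 22.3, 15.2, 14.2 and 13.9 CPM across shNT replicates 1 to 5 and 24.4, 22.4, 20.4 and 28.6 CPM across shRNA replicates 1 to 4. It was highest in shRNA replicate 4, and shNT replicates 1 and 2 lay inside the shRNA range. The log2 fold change was 0.46 (SE 0.19, FDR = 0.114, edgeR) and a two-sided exact permutation test gave p = 0.0635. It was the longest of the 48 genes, with 8382 bases of exon, and the trend of log2 fold change with exon length over all genes gave 0.45 at that length. Psmc3ip, a recombination factor, and Psme2b-ps, a copy of Psme2, match by name but are not known as subunits. They were at 2.10 ± 0.594 CPM (SD, n = 5) and 0.625 ± 0.228 CPM (SD, n = 5) under shNT and had log2 fold changes of -0.20 (FDR = 0.701) and -0.17 (FDR = 0.795, edgeR), and reads of Psme2b-ps and Psme2 may be split uncertainly between them.

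**Figure D4:**
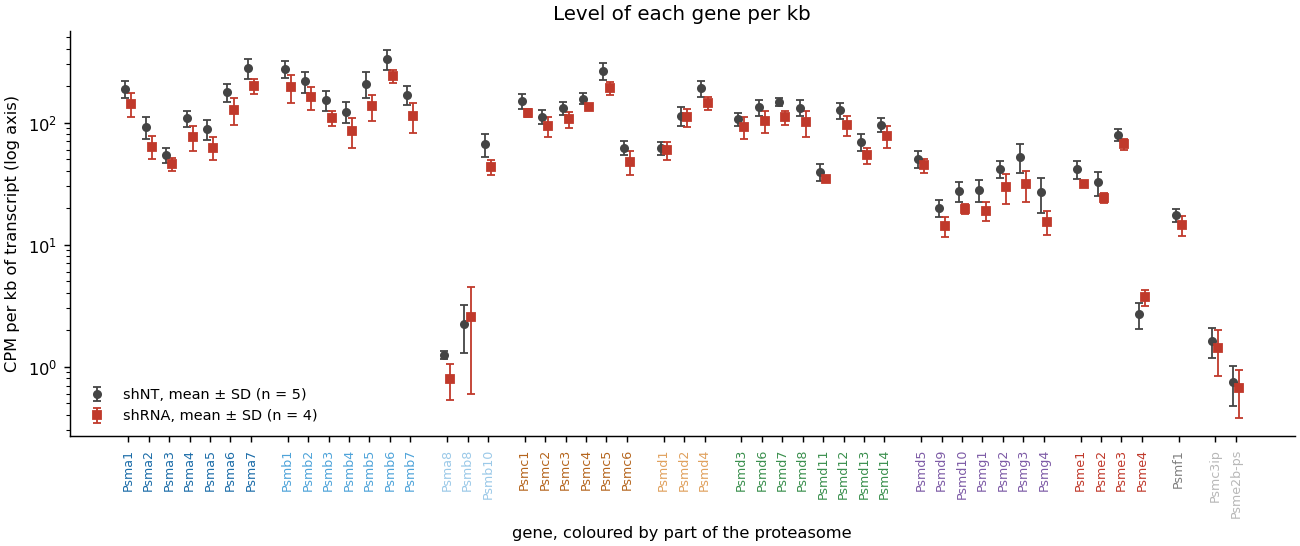
CPM per kb of transcript for each gene (log y axis), as mean ± SD of the 5 shNT samples (circles) and the 4 shRNA samples (squares). In the shNT samples the ring, base and lid genes lay between 39.2 and 332 CPM per kb, and the chaperones between 20.1 and 52.4.

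Subunits that enter the complex in equal number were not at equal levels per kb of transcript. In the shNT samples the 14 ring genes ran from 54.1 ± 7.28 CPM per kb (SD, n = 5) for Psma3 to 332 ± 63.3 CPM per kb (SD, n = 5) for Psmb6, a 6.13-fold range. The base genes ran from 61.7 (Psmd1) to 264 (Psmc5) and the lid genes from 39.2 (Psmd11) to 147 (Psmd7) CPM per kb. Psmb6, Psma7 (280.5 ± 53.7), Psmb1 (276 ± 43.0) and Psmc5 (264 ± 42.8) led the order, and neighbours among them lay within each other's SD. Chaperones, at 20.1 (Psmd9) to 52.4 (Psmg3) CPM per kb, were lower than most subunits, and Psma8 (1.25), Psmb8 (2.23) and Psme4 (2.68) were far lower. These levels take 1 transcript per gene, the one with the longest coding sequence, so that a gene expressed as a shorter form would stand higher.

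Short genes had lower fold changes. Over the 48 genes, Spearman's rho between log2 fold change and summed exon length was 0.646, over the 31 core, base and lid genes it was 0.700, and over 15047 genes of all kinds it was 0.406, as descriptions across genes of the same libraries, which are not independent replicates. The 48 genes had a median of 2174.5 bases of exon against 3622 over all genes. With the trend over all genes taken off, the median of the 48 was -0.33, with 45 below 0, against -0.06 over all genes. The order of the divisions then changed, to -0.34 for the core, -0.33 for the base and -0.40 for the lid. Psmd1 moved to -0.33 and Psme4 to 0.01.

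**Figure D5:**
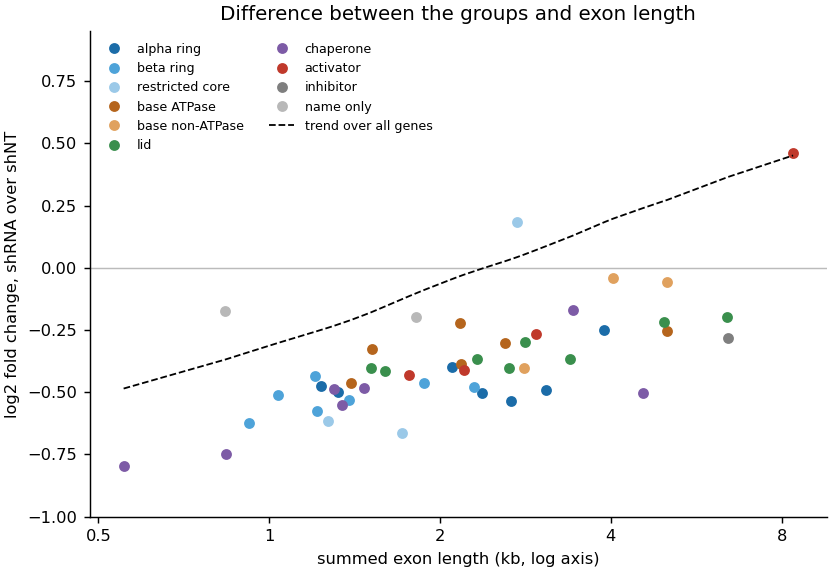
Log2 fold change, shRNA over shNT, of each gene (y axis) against its summed exon length in kb (log x axis), coloured by part, with the trend over all genes tested as a dashed line. Most points lie below that line, and Psme4, the longest gene, lies on it.

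Genes that act with the proteasome but fall outside the name rule were measured as a list of 32 symbols, of which 31 were found and tested. With edgeR 0 were called, against 0.0133% of all genes called lower and 1.74% called higher. At an unadjusted p under 0.05, 7 were lower and 1 was higher, against 13.4% and 20.7% of all genes. The log2 fold change was below 0 in 20, against 42.1% of all genes, and the median was -0.11, against 0.11. Within the YTa31 names the median log2 difference of the list was 0.06, with 13 below 0. Within the YTa32 names, with a single shRNA sample, it was -0.45, with 24 below 0. With the trend of log2 fold change with exon length taken off, the median was -0.32, with 27 below 0, against -0.06 over all genes. Shfm1 (ENSMUSG00000042541, chromosome 6 from 6508283 to 6528652), the smallest lid subunit, was at 88.0, 162, 90.6, 134 and 170.5 CPM across shNT replicates 1 to 5 and 87.6, 67.0, 67.7 and 50.6 CPM across shRNA replicates 1 to 4. Every shRNA sample was below every shNT sample, by a small margin, and the log2 fold change was -0.92 (SE 0.24, FDR = 0.0608, edgeR), which passed the threshold when shNT replicate 1 was left out (-1.03, FDR = 0.0374) and in 5 of 23 alternatives in all. Pomp (ENSMUSG00000029649, chromosome 5 from 148672204 to 148687354), which matures the core, was at 201, 314, 219, 279.6 and 367 CPM across shNT replicates 1 to 5 and 209, 184, 177 and 122 CPM across shRNA replicates 1 to 4, with overlap at shNT replicate 1 and a log2 fold change of -0.68 (SE 0.22, FDR = 0.0736, edgeR) that passed in 3 of 23 alternatives. Ubb and Rps27a, which encode ubiquitin, were at -0.45 (FDR = 0.114) and -0.70 (FDR = 0.0833, edgeR).

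Of the proteins bound to the regulatory particle, Uchl5, a deubiquitinase, was at -0.50 (FDR = 0.0737, edgeR) with no overlap between the groups. Adrm1, the ubiquitin receptor that holds it, was at -0.20 (FDR = 0.268) and Usp14, another deubiquitinase, at -0.16 (FDR = 0.609, edgeR). AI314180, which ties core and regulatory particle together, was the only gene of the list that was higher at an unadjusted p under 0.05, at 0.43 (FDR = 0.0837, edgeR). It has 11447 bases of exon. Nfe2l1 (ENSMUSG00000038615, chromosome 11 from 96678728 to 96691282), the transcription factor that raises proteasome genes when the proteasome is inhibited, was at 328, 218, 379, 294 and 285 CPM across shNT replicates 1 to 5 and 274, 353, 340.2 and 219 CPM across shRNA replicates 1 to 4. These values overlap throughout, and its log2 fold change was -0.02 (SE 0.20, FDR = 0.951, edgeR). Akirin2, which brings proteasomes into the nucleus, was at -0.29 (FDR = 0.212, edgeR).

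Since 46 of the 48 genes lay on the same side of 0, their promoters were searched for the core of the antioxidant response element, to which Nfe2l1 binds. RefSeq windows of 300 bases, from 250 before to 50 after the start (build GRCm38.p6, whereas the counts use mm9), were found for 39 of the 48 genes. The letters TGACNNNGC, on either strand, were in 6 of the 39 windows (15.4%), against 14.0% of 27025 genes with a window. The 6 were Psmb5, Psmb6, Psmc6, Psmd9, Psmd12 and Psme4. Of these 3 are printed, from core, base and activators, because they share the letters and differ in sign, with log2 fold changes of -0.62, -0.39 and 0.46. Capitals mark the match, at positions 204, 24 and 244 of the window, counted from 1 at the 5′ end.
Psmb5 (chr14:54617946-54618245, minus strand): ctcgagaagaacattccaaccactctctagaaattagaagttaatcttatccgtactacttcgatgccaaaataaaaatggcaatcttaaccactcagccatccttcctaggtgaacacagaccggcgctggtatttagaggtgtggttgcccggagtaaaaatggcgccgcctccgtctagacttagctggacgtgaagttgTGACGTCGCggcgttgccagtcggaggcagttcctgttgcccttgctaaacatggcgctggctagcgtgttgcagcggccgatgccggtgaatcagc
Psmc6 (chr14:45329574-45329873, plus strand): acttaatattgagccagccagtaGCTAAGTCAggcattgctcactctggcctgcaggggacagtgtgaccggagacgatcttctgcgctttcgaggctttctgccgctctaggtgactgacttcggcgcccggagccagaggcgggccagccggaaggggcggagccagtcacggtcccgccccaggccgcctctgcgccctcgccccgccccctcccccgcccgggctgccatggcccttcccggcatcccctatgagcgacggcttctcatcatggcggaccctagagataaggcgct
Psme4 (chr11:30771525-30771824, plus strand): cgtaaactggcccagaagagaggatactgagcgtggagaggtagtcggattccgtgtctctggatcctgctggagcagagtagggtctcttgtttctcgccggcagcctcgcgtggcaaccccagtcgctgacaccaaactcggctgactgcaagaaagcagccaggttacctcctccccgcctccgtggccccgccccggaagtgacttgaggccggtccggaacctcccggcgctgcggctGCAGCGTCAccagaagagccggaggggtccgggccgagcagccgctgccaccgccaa

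The 6 genes with the match had a median log2 fold change of -0.43 and the 33 without it of -0.40. CCAAT, on either strand, was in 33.3% of the 39 windows against 41.1% of all, and GGGCGG, the letters of a GC box, in 56.4% against 38.2%. The core of the interferon-stimulated response element was in 12.8% (5 genes: Psmb3, Psmd4, Psmd9, Psme1 and Psmg4) against 3.99%. Members with and without the letters had medians of -0.40 and -0.41 for CCAAT and of -0.40 and -0.40 for GGGCGG. For the interferon-stimulated element the medians were -0.48 with it (5 genes) and -0.39 without it (34 genes). The shares given for comparison came from all genes with a window, whether or not they reached 1 CPM here, and not from expressed genes alone. A match is a description of letters in these windows and does not show that a factor binds there. Beside the proteasome genes, Pvalb, the parvalbumin gene, had a log2 fold change of -0.92 (FDR = 0.0678, edgeR) that passed the threshold in 4 of 23 alternatives. The 10 PV IN markers had a median of -0.35, all below 0, against 42.1% of all genes. Their median log2 difference was -0.05 within the YTa31 names and -1.31 within the YTa32 names, which hold a single shRNA sample. Their mean relative log2 level was -0.40, -0.006, -0.18 and -1.27 in shRNA replicates 1 to 4. In the shNT samples it was -0.48 to 0.18.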

How the data were processed

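Ribosome-associated RNA immunoprecipitated with the HA tag was sequenced in 5 shNT and 4 shRNA samples. STAR was used by the authors for alignment against mm9 transcripts, HTSeq 0.6.0 gave unstranded counts per gene, and the authors deposited the counts without normalization. Rows that name no gene (reads outside exons, ambiguous reads and alignments at more than 1 place) held 22.0 to 34.5% of each file and were left out. Gene counts were 18281719 to 34578837 per sample, so counting error was small beside the spread between samples (biological coefficient of variation 0.303), except for genes near 1 CPM. GENCODE names of the same build were found for 37205 of 37620 identifiers.

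Genes that reached 1 CPM in any sample were kept (15069, with 22551 removed), normalized with TMM and tested with condition as the only term by edgeR 4.0.16's quasi-likelihood test in R 4.3.3, with Benjamini-Hochberg adjustment. Genes were called at an FDR under 0.05 and 1.5-fold or more, the criteria of the study, whose methods do not say which edgeR test was used. Log2 levels used a prior count of 2. Single genes were also compared by a two-sided exact permutation test with 126 arrangements, unadjusted over genes (scipy 1.17.1). The length trend is a lowess fit (statsmodels 0.14.6). Levels per kb use the transcript with the longest coding sequence. The fits were tested on simulated counts.

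Genes are named with values if called, if among the 6 with the smallest p, if highest or lowest per kb in their part, if catalytic or inducible core subunits, or if among Nfe2l1, Pomp, Adrm1, Shfm1, Usp14, Uchl5, Akirin2, Ablim3 and Pvalb. Psmb1, Psmc4, Psmd2, Psmd12, Psmd14, Psme1, Psme2, AI314180, Ubb and Rps27a were chosen after their values were seen, as were the 4 promoter motifs. The proteasome genes and all lists were chosen with earlier results of these data known. Alternatives were edgeR's likelihood ratio test and version 4 form, DESeq2 1.42.0, limma 3.58.1 voom, other normalizations and filters, the replicate number or name set as a term, 1 name set alone, the outside-exon share as a term, and samples left out.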

Additional observations from a re-analysis of the deposited data

Results flagged for a closer look

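A sample far from the rest of its group was sought in 80 sets of values, taken separately in the shNT and the shRNA samples. It was found in 11, against about 4 by chance over both groups. The sets come from the same libraries and are not independent, so 11 against 4 is not a test. Each time it was shRNA replicate 4 that lay far from the others. It was below them in Psmb5 (76.4 CPM), Psmb6 (157 CPM), Psmb7 (76.0 CPM), Psmc5 (208 CPM), Psmd4 (149 CPM), Psmd7 (141 CPM), Psmd9 (26.8 CPM) and the summed core (1335 CPM against 2092 to 2134 CPM). It was above them in Psma8 (1.98 CPM), Psmb8 (8.84 CPM) and Adrm1 (75.8 CPM, against 69.5 to 69.6 CPM). Over all 48 genes shRNA replicate 4 stood apart in 19, in 17 of them as the lowest, a shNT sample did in 1, and another shRNA sample in 0. The same library had the highest share of reads outside exons (27.2%) and the highest summed astrocyte and endothelial markers, and their part in these values was not tested.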

How the results depend on the processing

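The number of proteasome genes called higher was 0 under every alternative run. The number called lower was 4 with the likelihood ratio test, 7 with DESeq2, 3 with limma voom, 0 to 1 with each sample left out in turn (Psmb10 without shNT replicate 1), and 0 otherwise. Of all genes, 542, 833 and 618 were called lower with the likelihood ratio test, DESeq2 and limma voom, and 410 without shNT replicate 1. The cause of these differences was not tested.

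With name set YTa31 alone the median log2 fold change was -0.21 for all 48 genes, -0.22 for the core, -0.14 for the base and -0.12 for the lid. As plain differences within YTa31 the medians were -0.17, -0.18, -0.10 and -0.083, and within YTa32 -0.93, -1.28, -0.82 and -0.93. With the outside-exon share of reads as a term the lid median was -0.16 and the base median -0.17. The numbers lower at an unadjusted p under 0.05, each beside the share of all genes in the same fit, were 27 as reported (13.4%), 20 without shRNA replicate 4 (11.3%), 6 without shNT replicate 2 and shRNA replicate 4 together (9.05%), 14 with the outside-exon term (10.6%) and 2 with YTa31 alone (3.43%). Of 48 genes, 2 and 6 are near the share of all genes.

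Signs changed as follows among the genes named by rule. Psmb8 was at -0.25 with limma voom, -0.13 with the replicate block, -0.74 with YTa31 alone, -0.25 without shNT replicate 2 and shRNA replicate 4 together, -0.75 with the outside-exon term, and -0.53 to 0.42 with each sample left out. Psmd1 was at 0.047 with limma voom, 0.038 with YTa31 alone, 0.16 with the outside-exon term, and -0.20 to 0.0044 with samples left out. Psmd5 was at 0.013 with the outside-exon term, and Usp14 at 0.080 with YTa31 alone and 0.18 with that term. Of the 48 genes 43 were below 0 with that term, and Psmd2 (0.23) and Psmd3 (0.036) also came to lie above it. Nfe2l1 was at 0.13 with limma voom, 0.016 with library size only, 0.038 with YTa31 alone, 0.017 without shNT replicate 2 and shRNA replicate 4 together, 0.28 with the outside-exon term, and -0.17 to 0.092 with samples left out. Psme2b-ps ranged from -0.49 to 0.061 and Ablim3 from -0.044 to 0.26 with samples left out, and Ablim3 was at -0.027 with the replicate block.

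The replicate numbers are shared between the groups, but same-numbered samples did not deviate together (correlations of -0.257, -0.598, 0.530 and -0.259, with 1 of 4 shRNA samples closest to its own number). With the replicate block 0 proteasome genes were called, 3 were lower at an unadjusted p under 0.05 (against 4.93% of all genes, a share near theirs), their median was -0.43, and 34 genes of all were called higher and 0 lower against 262 and 2 as reported. The version 3 form of the quasi-likelihood test is the default of the edgeR version used and so was the test reported, and its version 4 form called 0 proteasome genes. Shfm1 was called lower with the likelihood ratio test, DESeq2, limma voom, no filter and without shNT replicate 1, Pomp with the first 3 of these tests, and Pvalb with those 3 and without shNT replicate 1. Genes near 1 CPM, such as Psma8 and Psmb8, are limited by depth.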
